A study of Mus musculus with 56 samples.

Results

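The 8 genes described here carry out antigen presentation on major histocompatibility complex (MHC) class II. They are H2-Aa, H2-Ab1, H2-Eb1, Cd74, H2-DMa, H2-DMb1, Ciita and Ctss. They were chosen by name, and their probes were found by matching the transcript accession of each array spot to a RefSeq gene symbol, which gave 9 probes among the 26413 named probes and 20018 named genes of the array. Only H2-Ab1 had more than 1 probe. In each tissue the probe with the brightest tissue signal was used.

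The mice were males of the MutaMouse strain, which carries a reporter transgene for mutation assays, and were adults of about 14 weeks. Each was gavaged for 28 days. Group D0 received olive oil alone. Chrysene, a polycyclic aromatic hydrocarbon dissolved in that oil, was given at 17.5 mg/kg-bw/day to group D1, 50 mg/kg-bw/day to group D2 and 150 mg/kg-bw/day to group D3. Lung, liver and forestomach, the squamous part of the rodent stomach, were taken 72 h after the final dose, and RNA came from random tissue sections. Each group had 5 arrays per tissue, except that D2 had 3 for lung and 4 for liver and for forestomach. These 56 arrays came from 19 mice, so that replicates were separate animals and the same animals supplied the 3 tissues. Each array carried tissue RNA in the Cy5 channel and a universal mouse reference RNA, pooled from cell lines, in the Cy3 channel. Every level below is the log2 ratio of tissue over reference for 1 probe, so a level can be compared between tissues and doses for the same gene but not between genes.

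MHC class II molecules are heterodimers of an alpha and a beta chain that display peptides from ingested proteins to CD4+ T cells. H2-Aa and H2-Ab1 encode the alpha and beta chain of the I-A molecule, and H2-Eb1 encodes the beta chain of I-E. Cd74, the invariant chain, escorts the new heterodimer to endosomes, where the protease Ctss (cathepsin S) degrades it and H2-DM, the product of H2-DMa and H2-DMb1, exchanges the remaining fragment for antigenic peptide. Ciita is the transactivator that drives transcription of the other class II genes. Dendritic cells, B cells and macrophages express the pathway at high levels, and interferon gamma induces it in many other cell types. In bulk tissue, fewer cells of a type and less RNA per cell cannot be told apart.

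By the RefSeq annotation of GRCm38.p6, H2-DMa, H2-DMb1, H2-Ab1, H2-Aa and H2-Eb1 lie together on chromosome 17, from the start of H2-DMa at 34119693 to the end of H2-Eb1 at 34316674. Ciita lies on chromosome 16 and Ctss on chromosome 3. Promoters of class II genes share a short conserved module, in which an X box bound by the RFX complex stands upstream of a Y box bound by NF-Y. Promoter windows from RefSeq, 250 bases before to 50 bases after the transcript start, were searched for H2-Aa, H2-Eb1, H2-DMa, H2-DMb1 and Ctss. The sequences of H2-Aa, H2-Eb1 and H2-DMb1 are shown because they carry such a module, each being the 150 bases just upstream of the start on the coding strand. Capitals mark a GNAAC match, which is part of the X box, and an ATTGG match, which is the reversed CCAAT core of the Y box.
H2-Aa, chr17:34287824-34287973, minus strand: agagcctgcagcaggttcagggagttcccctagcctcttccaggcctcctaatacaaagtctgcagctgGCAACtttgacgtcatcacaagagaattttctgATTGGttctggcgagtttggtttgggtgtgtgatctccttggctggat
H2-Eb1, chr17:34305717-34305866, plus strand: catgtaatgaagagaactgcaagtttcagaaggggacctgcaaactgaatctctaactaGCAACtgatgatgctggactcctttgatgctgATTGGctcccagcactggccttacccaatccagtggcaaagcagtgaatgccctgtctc
H2-DMb1, chr17:34153041-34153190, plus strand: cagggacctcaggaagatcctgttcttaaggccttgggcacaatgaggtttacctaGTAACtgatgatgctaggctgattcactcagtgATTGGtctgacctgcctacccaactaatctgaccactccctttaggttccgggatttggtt
In H2-Aa the GNAAC match began 81 bases and the ATTGG match 48 bases upstream of the start, with 28 bases between them. In H2-Eb1 they began 91 and 59 bases upstream with a gap of 27 bases, and in H2-DMb1 94 and 61 bases upstream with a gap of 28 bases. GNAAC followed by ATTGG after 27 or 28 bases, searched on both strands, was found in 128 of 32851 promoter windows (0.39%), whereas ATTGG alone was found in 37.4% and GNAAC alone in 84.8% of them. The spacing was chosen after these windows were read. No such pair was in the windows of H2-DMa or Ctss, and among the further class II pathway genes listed below it was in those of H2-Oa and H2-Eb2. The H2-DMa windows, chr17:34122582-34122881 and chr17:34125268-34125567, belong to transcript starts inside the gene. The sequence at the gene start given above was not searched.

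The arrays were checked before the members were compared. Between 47.6% and 55.2% of probes were well above background in Cy5 on the lung arrays, 33.2% to 45.2% on the liver arrays and 18.1% to 50.2% on the forestomach arrays. The labelled tissues were checked by the first gene of a marker list each. Sftpc of alveolar type II cells was well above background on 18 lung, 0 liver and 0 forestomach arrays, Alb of hepatocytes on 3, 19 and 14 arrays and Krt5 of keratinocytes on 7, 0 and 19 arrays. Genes of the glandular stomach were also present to a varying degree in the forestomach arrays, with a mean log2 ratio of 0.36 to 6.88. The lungs of D3 mice 17 and 19 stood apart by their skeletal muscle transcripts, with list levels of 6.36 and 6.61 against -1.41 to 0.85 in the other lungs. Their keratinocyte list levels were 4.01 and 4.42 against -1.34 to -0.88, and their Kupffer cell list levels, over 2 genes, 3.66 and 1.45 against 0.059 to 0.85. The 7 forestomach arrays of slide 3 were brighter than the other 12, with 39.0% to 50.2% of probes well above background in Cy5 against 18.1% to 33.4%. Slides and array positions were read from the names of the scanner files, since the labels do not state them. Each slide held arrays of 1 tissue and of at least 3 dose groups, and the position of an array on its slide largely followed its dose group.

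The first comparison asked how strongly the pathway was expressed in each tissue of the vehicle mice. Lung stood above liver and forestomach for every member that could be tested. By limma, all 7 tested members were higher in lung than in liver at an adjusted p of at most 0.05 and a fold change of at least 1.5, against 24.9% of all probes called higher in lung, and all 7 were higher in lung than in forestomach, against 19.3% of all probes. The median difference of the members was 3.16 log2 units for lung over liver and 3.23 for lung over forestomach, whereas the median over all probes was 0.03 and 0.0034. Without the slide 3 forestomachs all 7 were again higher in lung than in forestomach, by 5.52 log2 units for H2-Aa, 2.07 for H2-Ab1, 1.28 for H2-Eb1 and 2.34 to 3.67 for the others. Between forestomach and liver only H2-Eb1 passed both limits, and 22.0% of all probes were called higher in forestomach.

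Among the chains of the heterodimers, H2-Aa showed the widest separation. Its D0 levels in lung were 5.94, 6.31, 5.87, 6.22 and 6.27, and in liver 1.33, 0.88, 1.44, 1.17 and 1.75. No liver came near the lowest lung, and the difference was 4.81 ± 0.55 log2 units (SE, 28.0-fold; limma adjusted p = 9.62e-11). In forestomach the 5 vehicle mice read 0.80, 3.97, 0.73, 0.27 and 4.05, which formed a low set of 3 mice and a high set of 2 mice. The high ones were the 2 vehicle arrays on slide 3. Lung exceeded forestomach by 4.16 ± 0.55 log2 units (17.9-fold; limma adjusted p = 8.12e-09). The reference RNA gave no H2-Aa signal well above background on any liver or forestomach array and did so on 12 of 18 lung arrays, so the denominators of these ratios sit near background.

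H2-Ab1 differed less between tissues. Its D0 levels were 4.63, 4.77, 4.38, 4.82 and 4.53 in lung and 3.04, 3.11, 3.38, 3.25 and 3.30 in liver, which left a gap between the groups. The difference of 1.41 ± 0.26 log2 units was 2.66-fold (limma adjusted p = 6.93e-06). Forestomach read 3.50, 3.84, 2.81, 1.35 and 3.97, all below the lowest lung, and lung was 2.89-fold higher (limma adjusted p = 2.43e-06). The size of this H2-Ab1 difference depended on the processing. Over the alternatives other than leaving out a mouse, lung exceeded forestomach by 1.309 to 3.196 log2 units. H2-Eb1 read 3.95, 4.02, 3.52, 4.19 and 3.35 in lung, and 2.29, 1.91, 2.45, 2.34 and 2.18 in liver. Lung was 2.98-fold higher than liver without overlap (limma adjusted p = 6.22e-08). In forestomach H2-Eb1 read 2.49, 3.73, 2.76, 2.31 and 3.34, so that 1 slide 3 array lay inside the range of lung. Lung was 1.84-fold higher than forestomach (limma adjusted p = 0.00111), the smallest of the lung differences.

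Cd74, the invariant chain, separated the tissues most clearly relative to its spread. Its D0 levels were 3.42, 3.50, 3.74, 3.32 and 3.65 in lung, -0.89, -0.93, -0.60, -0.69 and -0.71 in liver, and -0.27, -0.52, -0.17, 0.03 and -0.33 in forestomach. Lung tissue thus exceeded the reference RNA in all 5 mice and liver lay below it in all 5 mice. Lung was 19.6-fold above liver (limma adjusted p = 1.15e-26) and 13.7-fold above forestomach (limma adjusted p = 1.10e-23).

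The peptide-loading and protease genes were also highest in lung. H2-DMb1 had D0 levels of 3.83, 3.49, 3.65, 3.58 and 4.09 in lung, -0.13, -0.34, -0.01, -0.05 and 0.37 in liver, and 0.17, 0.82, 0.21, 0.04 and 1.01 in forestomach. Lung was 13.5-fold above liver and 9.70-fold above forestomach. H2-DMa, its partner chain, had D0 levels of 1.78, 2.03, 2.00, 1.93 and 1.87 in lung, -0.95, -1.15, -0.63, -0.63 and -0.75 in liver, and -0.32, -0.85, -0.53, -0.40 and -0.47 in forestomach. Its tissue signal was well above background on all 5 lung arrays of D0, on 4 of 5 liver arrays and on 2 of 5 forestomach arrays, so the 6.71-fold and 5.42-fold differences set lung against values near background. Ctss, the cathepsin that trims the invariant chain, read 1.65, 1.73, 1.98, 1.55 and 3.00 in lung, with mouse 5 above the rest, -1.74, -1.27, -0.93, -1.13 and -0.82 in liver, and -1.48, -1.30, -1.14, -0.93 and -1.43 in forestomach. Lung was 8.91-fold above liver and 9.42-fold above forestomach. For these 3 genes the limma adjusted p lay at or below 3.60e-19 in both comparisons.

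Ciita could not be measured in most samples. Its tissue signal was well above background on 1 of 18 lung arrays, 0 of 19 liver arrays and 0 of 19 forestomach arrays, with median raw Cy5 signals of 84.25, 82 and 72. It was therefore not well above background on nearly all arrays, was not tested and has no fold change.

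**Figure D1:**
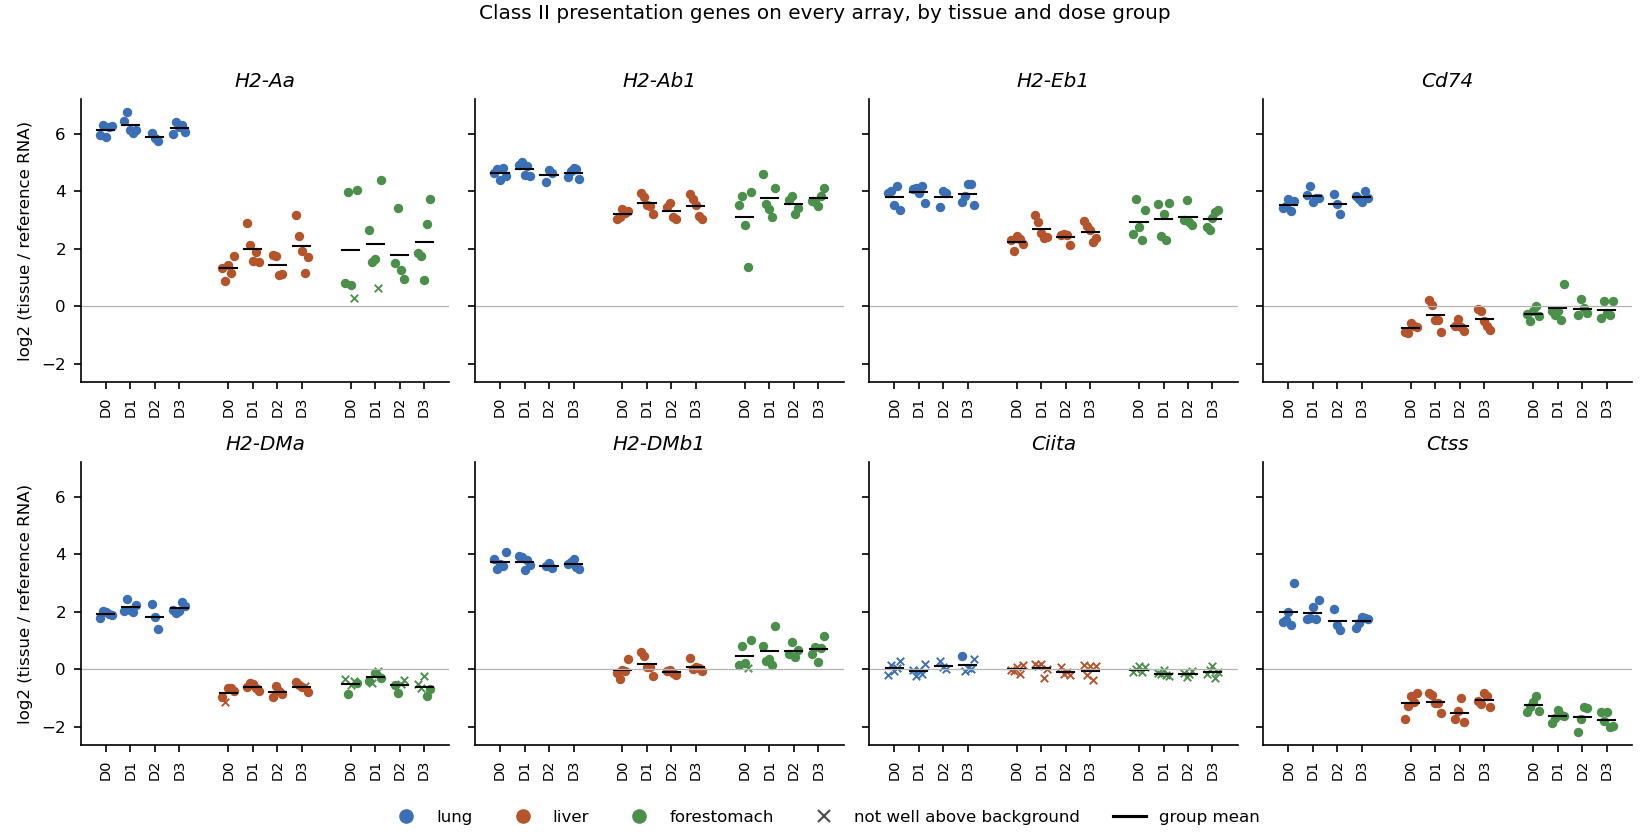
Log2 ratio of tissue over reference RNA for each of the 8 genes on all 56 arrays, by tissue and dose group. Points are single arrays, crosses are spots not well above background and bars are group means. The lung means lie above those of the other tissues for the 7 measured genes, with some forestomach arrays of H2-Ab1 and H2-Eb1 inside the lung range, Ciita is marked by crosses on nearly all arrays, and the forestomach values of H2-Aa fall into a low and a high set.

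Forestomach and liver lay closer together, with a median difference of 0.48 log2 units over the members against 0.04 over all probes. The order of these tissues depended on the arrays and on the scaling. H2-Eb1 was 0.70 ± 0.23 log2 units higher in forestomach (1.62-fold; limma adjusted p = 0.00876), and the differences of Cd74 (0.51), H2-DMb1 (0.48) and H2-DMa (0.31) had adjusted p values of 0.0115, 0.0210 and 0.0283 but a fold change below 1.5. For H2-DMa this difference rests on 2 of 5 forestomach and 4 of 5 liver arrays above background. H2-Aa differed by 0.65 log2 units with a 95% interval from -0.46 to 1.76, H2-Ab1 by -0.12 (-0.65 to 0.42) and Ctss by -0.08 (-0.48 to 0.32), so no difference was resolved for these genes. Over the alternatives other than leaving out a mouse they ranged from -0.71 to 0.70, -0.96 to 0.31 and -1.48 to -0.0053 in that order. No member was called without D0 mouse 2 or without D0 mouse 5, and centring each array on its median without loess turned H2-Eb1 to -0.29 and Cd74 to -0.80. Without the 7 arrays of slide 3, H2-Eb1 was 0.29 log2 units higher in forestomach (limma adjusted p = 0.218), Cd74 passed both limits at 0.62, and H2-Ab1 and H2-Aa passed them in the other direction at -0.66 and -0.71.

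**Figure D2:**
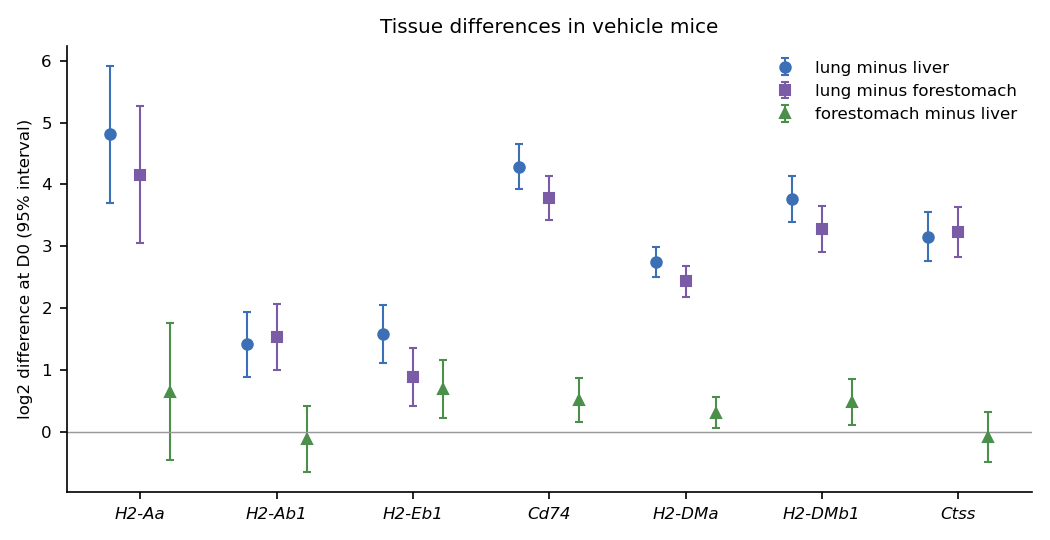
Log2 differences between tissues in D0 mice for the 7 tested genes, with 95% intervals from limma. Lung over liver ranges from 1.41 for H2-Ab1 to 4.81 for H2-Aa, lung over forestomach from 0.88 for H2-Eb1 to 4.16 for H2-Aa, and forestomach over liver from -0.12 for H2-Ab1 to 0.70 for H2-Eb1.

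The same comparison was made for other genes of the pathway. Of all probes, 21.1% were called lower in lung than in liver, 18.3% lower in lung than in forestomach and 19.0% lower in forestomach than in liver. Of 10 further class II pathway genes, which cover accessory chains, endosomal proteases and a ligase, 7 were higher and 1 lower in lung than in liver. The endosomal enzymes Lgmn, Ctsd and Ifi30 were 1.81, 1.67 and 1.26 log2 units higher. The other 4 of the 7 were H2-Oa and H2-Ob, the H2-DO chains that restrain H2-DM, and H2-Eb2 and H2-DMb2. Each was well above background on 18 of 18 lung arrays and on 0 of 19 liver arrays, so they entered the comparison through lung and are given without a difference. Ctsl, a cathepsin that can also degrade the invariant chain, was 1.82 log2 units lower in lung than in liver, and Ctsb, the other of the brightest genes of this list, differed by -0.29 (limma adjusted p = 0.167). Against forestomach, 5 of 10 were higher in lung, namely Lgmn and these 4, which were well above background on 0 to 3 of 19 forestomach arrays, and Ifi30 was 0.75 log2 units lower. Forestomach exceeded liver for Ifi30 (2.01) and Ctsd (1.79) and lay below it for Ctsl (-1.27) among 7 tested genes.

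Genes that control class II transcription differed in both directions between lung and liver. Of 7 genes, Nfyc and Nfya were 0.67 and 0.61 log2 units higher in lung than in liver and Nfyb and Rfxank were 1.31 and 0.74 lower, and 0 of 7 passed both limits between lung and forestomach (limma; 2 of them had an adjusted p of at most 0.05, at 0.44 for Nfyc and -0.24 for Rfxank). Of 13 genes of the interferon gamma axis, 10 were higher in lung than in liver and 1 was lower. The receptor chain Ifngr1 was 2.65, the transcription factors Irf1 and Irf8 were 2.11 and 2.07, and the guanylate-binding protein Gbp2 was 2.79 log2 units higher, whereas the chemokine Cxcl9 was 0.96 lower. Against forestomach 9 of these 13 were higher in lung, led by Irf1 at 2.91.

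Class I presentation, which displays peptides from within the cell, was ordered otherwise. Of 11 class I genes, 4 were higher and B2m, its invariant light chain, was 0.99 log2 units lower in lung than in liver, and the heavy chain gene H2-K1 differed by -0.19 (limma adjusted p = 0.361). In forestomach 8 of 11 were lower than in liver, including B2m by 3.72 and H2-K1 by 3.21 log2 units, and 9 of 11 were lower than in lung. Of the costimulatory genes, 4 of 5 were higher in lung than in liver, among them Cd83 by 3.47 log2 units, and 5 of 5 were higher in lung than in forestomach. Of these, Cd40 was well above background on 18 lung, 0 liver and 2 forestomach arrays and Icosl on 18, 1 and 18 arrays, so that both entered the liver comparison, and Cd40 the forestomach comparison, only through lung.

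Marker lists of immune cells differed in direction between lung and the other tissues. In lung over liver, 5 of 8 tested B cell genes, 4 of 7 dendritic cell genes, 5 of 7 macrophage genes and 3 of 3 pan-leukocyte genes were higher, and 4 of 4 Kupffer cell genes were lower. Of all probes, 24.9% were called higher and 21.1% lower in lung than in liver. Only 4 of the B cell and 4 of the dendritic cell genes passed the background filter in liver, and 3 and 3 in forestomach, while 2 of the 4 Kupffer cell genes passed it in lung. The others entered these comparisons only through the tissue where they were high, so that their counts are no measure of the size of a difference. The T cell list was split, with 2 of 5 genes higher and 2 lower in lung than in liver, the former Cd3d (well above background on 2 of 19 liver arrays) and Cd3g at 1.16, the latter Cd3e at -0.78 and Cd4 at -2.41 log2 units. In lung over forestomach, 5 of 8 B cell, 5 of 7 dendritic cell, 7 of 7 macrophage and 3 of 3 pan-leukocyte genes were higher, against 19.3% of all probes. The dendritic cell marker Flt3 was well above background on 18 of 18 lung arrays, 1 of 19 liver arrays and 0 of 19 forestomach arrays. It entered both comparisons only through lung, was not called in either and is given without a difference. Langerhans cells are the class II-positive cells of squamous epithelium, and their marker Cd207 was well above background on 15 of 18 lung arrays, 19 of 19 liver arrays and 0 of 19 forestomach arrays. Epcam, the other gene of that list and also an epithelial gene, was so on 18, 0 and 18 arrays and lay 0.93 log2 units lower in lung than in forestomach. The part of these markers in the class II levels was not tested.

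The next comparison asked whether chrysene altered the members. No member passed both limits at any dose in any tissue by limma, and no member passed by the Fs statistic of the study's methods. In lung 0 of 7 tested members passed at each dose, where 0%, 0% and 0.127% of all probes were called from the low to the high dose, and 0 of 7 passed along a linear dose trend, where 0.168% of all probes were called. In liver 0% of all probes were called at any dose or in the trend. In forestomach 0%, 0% and 0.00727% of all probes were called from the low to the high dose, and 0.0400% in the trend. Without adjustment, a p of at most 0.05 was reached by 1, 0 and 1 lung members at the low, middle and high dose, against 5.88%, 6.12% and 16.2% of all probes. In liver 5, 0 and 3 members passed, against 3.61%, 3.79% and 4.80%. In forestomach 1, 1 and 1 passed, against 4.17%, 7.53% and 9.24%.

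**Figure D3:**
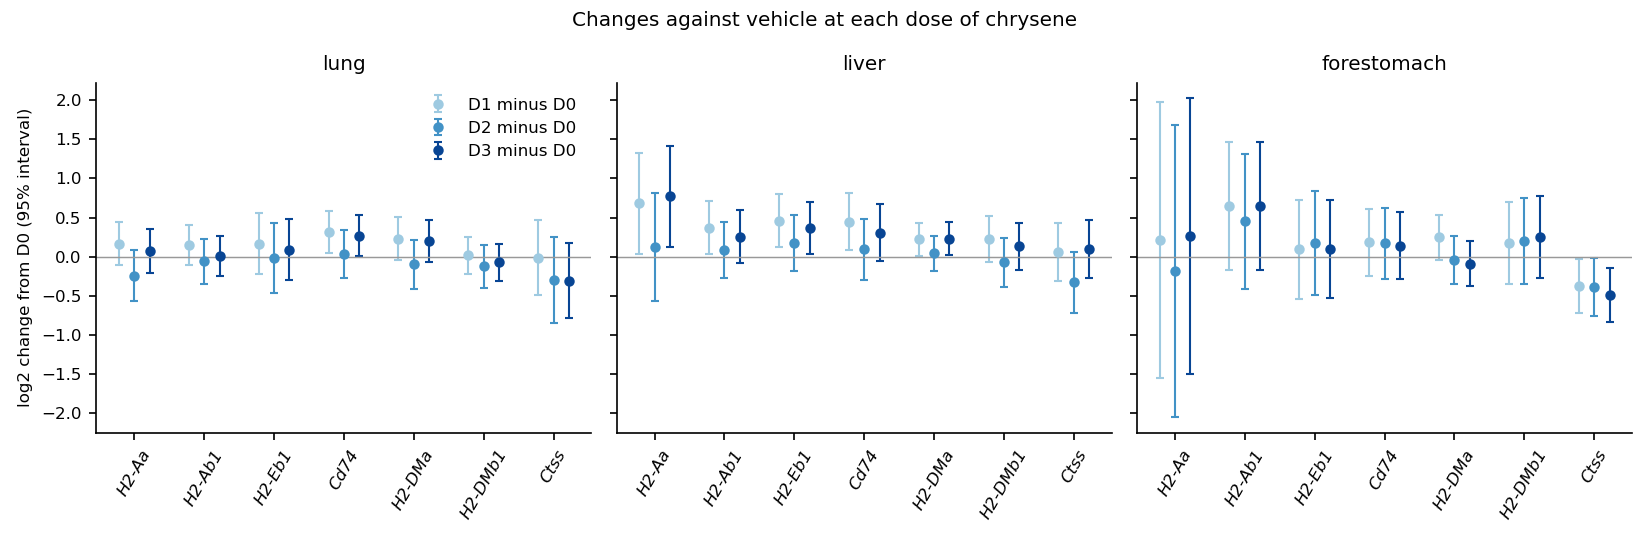
Log2 change against D0 at each dose of chrysene for the 7 tested genes in each tissue, with 95% intervals from limma. Liver points at D1 and D3 lie above 0 for all 7 genes, the forestomach intervals of H2-Aa are the widest, and Ctss lies below 0 at each dose in forestomach.

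In lung the members' median changes were 0.16, -0.10 and 0.07 log2 units at D1, D2 and D3, and no direction held under each alternative at D2 and D3. Centring on the array median gave 0.11 at D2, array column in the fit gave -0.35 at D3, and leaving out 1 mouse at a time gave 0.084 to 0.21 at D1, -0.14 to -0.072 at D2 and -0.0027 to 0.12 at D3, the lowest values being those without D1 mouse 7, D2 mouse 13 and D3 mouse 18. Cd74 read 3.42, 3.50, 3.74, 3.32 and 3.65 at D0, 3.88, 4.17, 3.62, 3.75 and 3.78 at D1, 3.91, 3.55 and 3.21 at D2, and 3.82, 3.74, 3.63, 4.01 and 3.76 at D3. The highest control was exceeded by 4 of 5 mice at D1 and likewise at D3, and D2 lay inside and around the control range. The changes were 0.31 ± 0.13 at D1 and 0.27 ± 0.13 at D3 (SE; limma adjusted p = 0.832 and 0.301). Over the alternatives other than leaving out a mouse, the D1 change ranged from 0.092 to 0.58. With array column in the fit the D3 changes of Cd74 and H2-DMa were -0.35 and -0.73. Array column nearly followed dose group in lung, so that this fit can hardly separate column from dose. At D3 the other changes were 0.20 for H2-DMa, 0.09 for H2-Eb1, 0.07 for H2-Aa, 0.0068 for H2-Ab1, -0.07 for H2-DMb1 and -0.31 for Ctss, with limma adjusted p values of 0.466 to 0.986. That of Ctss was -0.052 without D0 mouse 5, which read 3.00, and -1.59 with array column in the fit. The 2 lungs with muscle transcripts belonged to this group. The B cell list had a median change of 0.40 log2 units at D3, with 0 genes called. Without adjustment (p up to 0.05) 4 of 8 genes were higher, against 16.2% of all probes in either direction. Its level was 0.90 to 1.14 in 4 D3 lungs and 1.86 in mouse 19, against 0.48 to 0.98 in D0 lungs, and its part in the class II values was not tested. Without mice 17 and 19 the Cd74 change was 0.21, H2-Eb1, H2-Ab1 and H2-Aa lay at -0.0065, -0.06 and -0.04, and again no member was called.

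In liver the means of all tested members lay above D0 at the low and the high dose and those of most at the middle dose, though none was called. The doses were not tested against each other. All 7 tested members had a higher mean at D1 and at D3 than at D0, with median changes of 0.37 and 0.26 log2 units against -0.0048 and -0.0073 over all probes, and 5 of 7 had a higher mean at D2, with a median of 0.08. Of all probes, 47.8%, 48.8% and 47.0% had a higher mean at D1, D2 and D3. Members varied together between livers and shared the same controls, so these counts are not independent. The D2 median was -0.017 to 0.15 with 1 mouse left out at a time and -0.027 to 0.13 over the other alternatives. H2-Aa read 1.33, 0.88, 1.44, 1.17 and 1.75 at D0, 2.88, 2.12, 1.57, 1.88 and 1.54 at D1, 1.78, 1.76, 1.10 and 1.11 at D2, and 3.18, 2.45, 1.93, 1.15 and 1.70 at D3. Every control was exceeded by 3 of 5 mice at D1 and at D3, and the remaining mice overlapped with the controls. The change was 0.68 log2 units at D1 (95% interval 0.04 to 1.33) and 0.77 at D3 (0.12 to 1.42), with limma adjusted p values of 1.00 and 0.978.

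H2-Eb1 in liver read 2.29, 1.91, 2.45, 2.34 and 2.18 at D0, 3.19, 2.94, 2.56, 2.39 and 2.40 at D1, 2.49, 2.50, 2.48 and 2.15 at D2, and 2.97, 2.79, 2.63, 2.22 and 2.37 at D3. The highest liver belonged to D1, and each dosed group overlapped with D0. Its change was 0.46 at D1 (0.12 to 0.80) and 0.36 at D3 (0.03 to 0.70). Cd74 read -0.89, -0.93, -0.60, -0.69 and -0.71 at D0, 0.23, 0.04, -0.47, -0.48 and -0.90 at D1, and -0.11, -0.17, -0.51, -0.67 and -0.83 at D3. At D1 4 of 5 mice lay above all controls, and the change was 0.45 at D1 (0.08 to 0.81) and 0.31 at D3 (-0.06 to 0.67). H2-Ab1 differed from D0 by 0.37 at D1 (0.03 to 0.71) and 0.26 at D3 (-0.08 to 0.60), and H2-DMa by 0.22 at D1 (0.01 to 0.43) and 0.23 at D3 (0.02 to 0.44). H2-DMb1 differed from D0 by 0.23 and 0.13 and Ctss by 0.06 and 0.10. Over the alternatives other than leaving out a mouse, D3 changes ranged from 0.041 to 0.16 for H2-DMb1 and 0.049 to 0.50 for Ctss. Those of H2-DMa were 0.12 to 0.23 at D1 and 0.11 to 0.29 at D3, and those of H2-Aa 0.40 to 0.82 and 0.47 to 0.87. Without D3 mouse 16 the D3 changes were 0.50 for H2-Aa, 0.15 for H2-Ab1 and 0.054 for H2-DMb1. Without D0 mouse 2 those of H2-DMa were 0.14 at D1 and 0.15 at D3 and those of H2-DMb1 were 0.15 and 0.054. H2-DMb1 also lay at 0.13 at D1 without D1 mouse 6 and at 0.23 at D3 without D0 mouse 5. None of the 14 comparisons had a limma adjusted p below 0.978.

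The liver differences were not of the same size on every slide, and for some members not of the same direction. On slide 1, with 1 control, 1 D1 and 2 D3 arrays, H2-Aa differed from D0 by 2.00 at D1 and 1.93 at D3. On slide 2, with 2 arrays of each, the differences were 0.42 and 0.24, and on slide 3, with 2, 2 and 1 arrays, 0.29 and 0.16. At D3 on slide 3, H2-Ab1, Cd74, H2-DMb1 and Ctss differed from D0 by -0.12, -0.026, -0.19 and -0.028. H2-Eb1 and H2-DMa differed there by 0.14 and 0.074. With slide as a block the members' median change was 0.37 at D1 and 0.22 at D3. Immune marker lists in liver had median changes at D1, D2 and D3 of 0.16, 0.04 and 0.17 log2 units over 4 tested B cell genes, 0.11, -0.024 and 0.05 over 4 dendritic cell genes, 0.18, -0.32 and 0.06 over 7 macrophage genes and 0.021, -0.64 and -0.012 over 4 Kupffer cell genes. Without adjustment (p up to 0.05), 1 B cell gene was higher at D1 and 1 at D3, and 2 macrophage and 3 Kupffer cell genes were lower at D2. The Langerhans cell marker Cd207 differed from D0 by 0.61, 0.029 and 0.35 log2 units at the low, middle and high dose (limma unadjusted p = 0.00758 at the low dose, adjusted p = 1.00). No gene of these lists was called by limma. Their part in the class II values was not tested. On simulated arrays the same fit recovered 92% of probes changed by 1 log2 unit at D3 in liver, 97% in lung and 64% in forestomach. Their noise was drawn independently for each probe and array, without shared slide effects. Changes below 1 log2 unit, such as those of the members, were not simulated, so these shares do not tell whether they could be called.

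In forestomach the spread between mice was the widest. The members' median changes were 0.18, 0.17 and 0.14 log2 units at D1, D2 and D3, and leaving out 1 mouse at a time moved them between -0.048 and 0.29, 0.013 and 0.29, and -0.059 and 0.30. They lay below 0 at D1 without D1 mouse 10 and at D3 without D0 mouse 1 or 4. Only Ctss reached an unadjusted p of 0.05, and it did so at each dose, with lower levels than in D0. It read -1.48, -1.30, -1.14, -0.93 and -1.43 at D0, -1.85, -1.67, -1.42, -1.59 and -1.63 at D1, -2.18, -1.71, -1.32 and -1.35 at D2, and -1.50, -1.80, -1.48, -1.99 and -1.96 at D3. Below every control lay 4 of 5 mice at the low dose, 2 of 4 at the middle dose and 4 of 5 at the high dose. The changes were -0.38, -0.39 and -0.49 log2 units, with limma adjusted p values of 1.00, 0.638 and 0.311. Without D2 mouse 11 the middle one was -0.20. Within slides the D3 difference was -0.17 on slide 1, -0.44 on slide 2 and -0.61 on slide 3. Centring each array on its median without loess turned the D3 change to 0.10. The other D3 changes were 0.65 for H2-Ab1 (0.21 without D0 mouse 4 and 0.31 on its second probe), 0.26 for H2-Aa, 0.25 for H2-DMb1, 0.14 for Cd74, 0.10 for H2-Eb1 and -0.09 for H2-DMa, with limma adjusted p values of 0.673 to 0.961.

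The forestomach levels of the class II chains also differed between slides, each of which held all 4 dose groups. On slide 3 H2-Aa ranged from 2.67 to 4.40, and on slides 1 and 2 together from 0.27 to 1.84, without overlap. The median raw Cy5 signal was 736 on slide 3, 129 on slide 1 and 100 on slide 2, and the Cy3 signal was 51, 44.5 and 40.5. H2-Eb1 lay between 3.29 and 3.73 on slide 3 and between 2.30 and 3.21 on the others, and H2-Ab1 reached 3.84 to 4.58 on slide 3. Cd74, H2-DMa and Ctss overlapped between slides. Marker lists differed as well: pan-leukocyte levels were -2.37 to -1.97 on slide 3 and -1.62 to -0.80 on the others, T cell levels were -1.73 to -0.97 against -0.85 to -0.26, and keratinocyte levels were 4.43 to 5.42 against 3.31 to 4.09. Their part in the slide difference was not tested. Both H2-Ab1 probes gave a like level in lung and liver, where they differed by at most 0.15 and 0.16 log2 units, but on 1 forestomach array, D0 mouse 4 on slide 2, the probe used read 1.35 and the second probe lay 1.67 log2 units away.

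**Figure D4:**
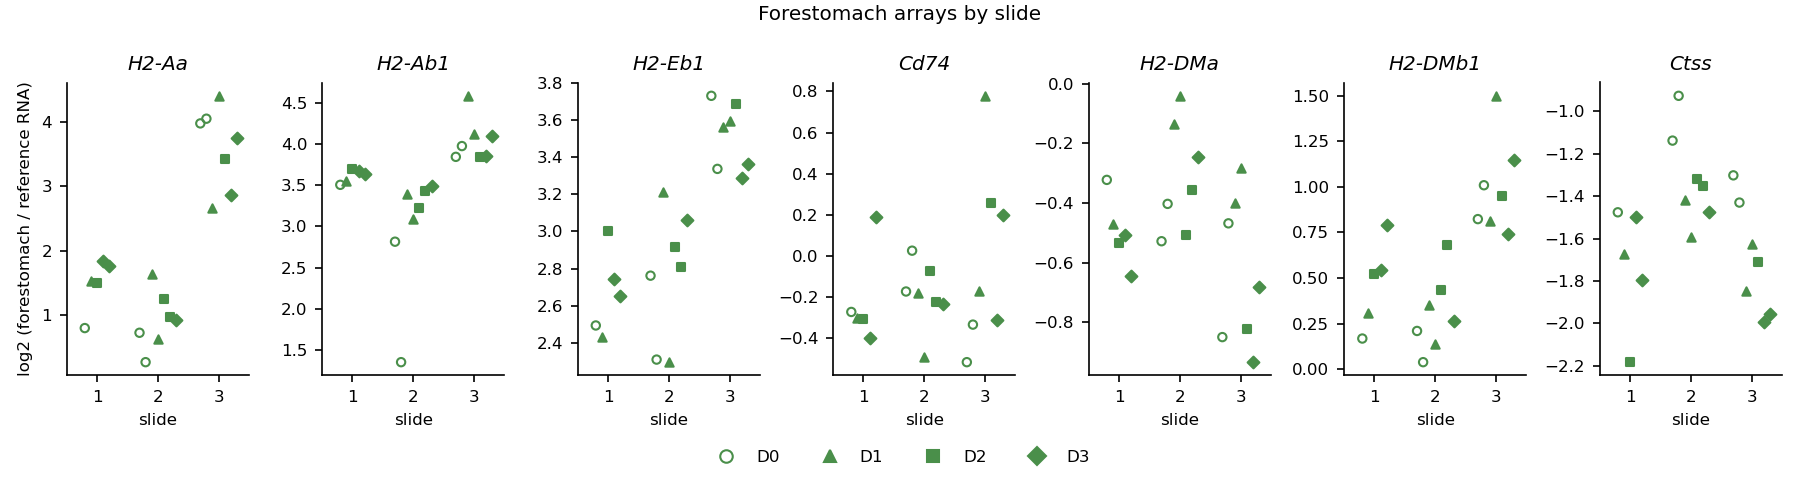
Forestomach log2 ratios of the 7 tested genes by slide, with the symbol giving the dose group. H2-Aa separates slide 3 (2.67 to 4.40) from slides 1 and 2 (0.27 to 1.84) in every dose group, and Cd74 overlaps across slides.

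The difference in response between tissues was tested for the D3 effect. No member passed both limits for lung against liver (0% of all probes called), lung against forestomach (0.703%) or forestomach against liver (0.0773%). Without adjustment, 1 of the 21 comparisons had a p of at most 0.05, which was Ctss in forestomach against liver, whose D3 effects of -0.49 and 0.10 differed by -0.59 (limma adjusted p = 0.475). The other lists gave 0 called genes at any dose in any tissue. The class I genes had median D3 changes of -0.08, -0.04 and -0.22 log2 units in lung, liver and forestomach, and the interferon gamma axis 0.07, 0.06 and 0.02.

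Within a tissue, the variation of the members from mouse to mouse was compared after the mean of each dose group was removed. In liver the heterodimer chains and Cd74 varied together. Over the 19 livers the deviations of H2-Ab1 and Cd74 had a Pearson r of 0.91 and a Spearman rho of 0.93 (permutation p = 1e-05 for both, the smallest that 100000 permutations can give, 0.000105 after adjustment over 21 relations, 3 of which involve Ciita at background and are not described). H2-Ab1 had r = 0.87 and rho = 0.86 with H2-Aa (adjusted permutation p = 0.000105 for both) and r = 0.83 and rho = 0.82 with H2-Eb1 (adjusted permutation p = 0.000252 and 0.000262). For H2-DMb1 r was 0.71 and rho 0.77 (adjusted permutation p = 0.00192 and 0.00051), and for H2-DMa r was 0.55 and rho 0.61 (adjusted permutation p = 0.0284 and 0.0143). Ctss had r = 0.38 and rho = 0.42 (adjusted permutation p = 0.15 and 0.107). Without the 2 livers farthest from the median of H2-Ab1, r was 0.90 for Cd74, 0.82 for H2-Aa, 0.77 for H2-Eb1, 0.59 for H2-DMb1 and 0.56 for H2-DMa. With slide means removed as well, r was 0.89, 0.84, 0.84, 0.78 and 0.79 in that order. Ctss then had r = 0.54 and rho = 0.57 (adjusted permutation p = 0.0387 and 0.0397). Members measured on 1 array share its RNA and hybridization.

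**Figure D5:**
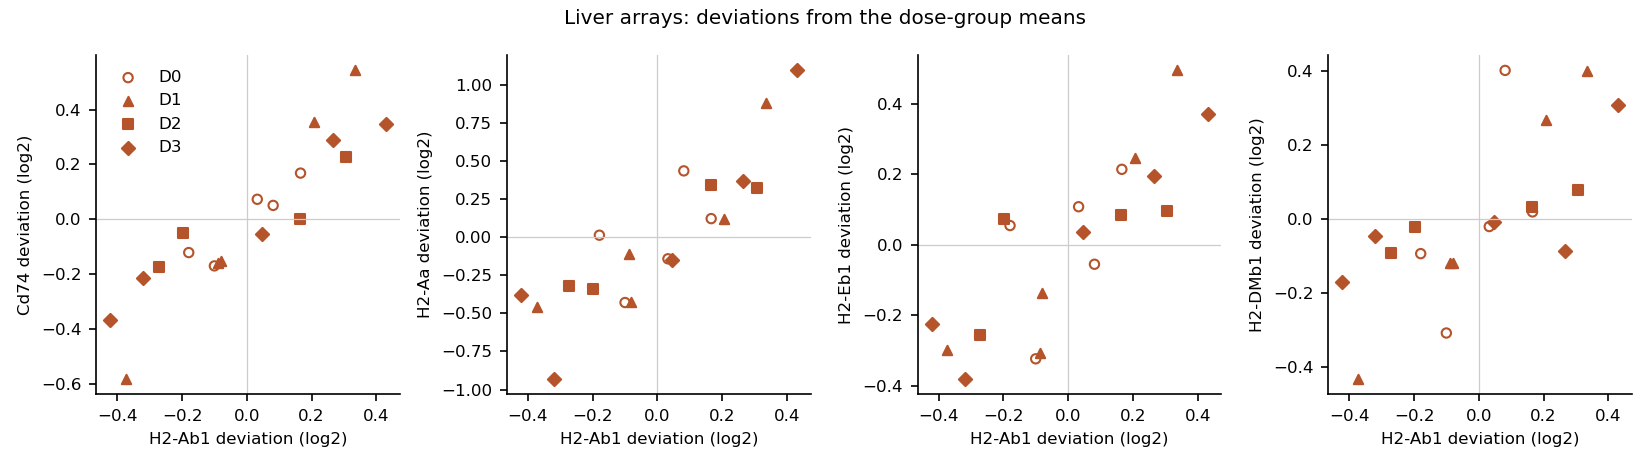
Deviations from the dose-group means over the 19 liver arrays, in log2 units, for Cd74, H2-Aa, H2-Eb1 and H2-DMb1 against H2-Ab1. Symbols give the dose group, and livers of every group lie along the rising band, most tightly for Cd74.

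In lung some of the relations followed the slides. Over 18 lungs H2-Ab1 had r = 0.87 and rho = 0.83 with H2-Eb1 (adjusted permutation p = 0.000252 and 0.00021), and r was 0.88 without the 2 farthest lungs and 0.63 with slide means removed. With H2-Aa r was 0.53 and rho 0.48 (adjusted permutation p = 0.0395 and 0.0816), 0.57 without the 2 farthest and 0.55 with slide means removed. With Cd74 r was -0.13 and rho -0.08 (adjusted permutation p = 0.681 and 0.786), and r was 0.37 with slide means removed. With Ctss r was -0.53 and rho -0.47 (adjusted permutation p = 0.0313 and 0.0832), and r was -0.47 without the 2 farthest lungs and -0.09 with slide means removed, so that this relation did not hold within slides. The forestomach arrays fell into separate sets by slide, and the relations among members are given within slides. With dose-group and slide means removed, H2-Ab1 had r = 0.54 and rho = 0.36 with H2-Eb1 (adjusted permutation p = 0.0387 and 0.201), r = 0.30 and rho = 0.18 with H2-Aa (adjusted permutation p = 0.306 and 0.502), and r = 0.24 and rho = 0.21 with H2-DMb1 (adjusted permutation p = 0.389 and 0.443). Cd74, Ctss and H2-DMa had r of -0.33, -0.20 and 0.29 (adjusted permutation p = 0.252, 0.448 and 0.306) and rho of -0.26, -0.23 and 0.45 (adjusted permutation p = 0.395, 0.437 and 0.0941).

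Between tissues of the same mouse few members deviated together. Of 24 relations, 3 of them of Ciita, H2-DMa in lung and forestomach had r = -0.72 and rho = -0.73 over 18 mice (adjusted permutation p = 0.0182 and 0.0216), -0.69 without the 2 farthest mice and -0.64 with slide means removed, while its forestomach signal was above background on 9 of 19 arrays. H2-DMb1 in lung and liver had r = 0.68 and rho = 0.64 (adjusted permutation p = 0.0251 and 0.0595), 0.48 without the 2 farthest and 0.68 with slide means removed. The remaining 22 relations had an adjusted permutation p above 0.05 for r.

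Other genes whose variation was most like that of the class II chains and Cd74 were ranked by the Pearson r of their deviations from dose-group means with the mean deviation of H2-Aa, H2-Ab1, H2-Eb1 and Cd74. Over 18 lungs and 14742 genes these were Serping1, an inhibitor of complement, with r = 0.86, and Fam214b, Pip4k2b, Psmc5 and Lin37 with r of 0.85, 0.85, 0.84 and 0.84. Over 19 livers and 12588 genes they were Chchd6 (0.86), 4931440P22Rik (0.85), Drap1 (0.83), Lcat (0.83), an enzyme that esterifies plasma cholesterol, and Arf5 (0.80). Over 19 forestomachs and 14060 genes they were Samd12, Pigc, Zfp454, the growth factor gene Fgf1 and Hnmt, whose r with slide means removed was 0.85, 0.80, 0.77, 0.82 and 0.75. The forestomach ranking itself was made with slide differences included and was unspecific, since 1991 genes had an r above 0.7 there, against 68 in lung and 32 in liver, and Reep5 led within slides with an r of 0.91. With slide means removed the lung values were 0.75, 0.72, 0.70, 0.74 and 0.81 and the liver values 0.80, 0.77, 0.78, 0.76 and 0.78 in the order given, and the ranking differed. Of the 5 genes named, Lin37 in lung, Chchd6 in liver, and Samd12 and Fgf1 in forestomach were then still among the first 5.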

How the data were processed

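The authors quantified the scans with Feature Extraction, and their deposited scanner files hold median spot intensity values in Cy5 and Cy3 with flags for spots well above background. Their deposited value table holds log2 ratios of the 2 channels, which the study's methods describe as LOWESS-normalized median signals without background subtraction. No dyes were swapped. Its scale and direction were checked against loess ratios computed here from the scanner signals, with r of 0.977 to 0.998. Array medians of the table lay between -0.05 and -0.02.

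Probes were named through RefSeq accessions without versions (GRCm38.p6). Testing required Cy5 well above background on at least 3 arrays of the tissue, which left 31495 probes in lung, 24766 in liver and 27525 in forestomach, and non-uniform spots were treated as missing. Doses were compared with D0 within each tissue, and tissues in 1 fit of all 56 arrays, by limma 3.58.1 in R 4.3.3 (two-sided, Benjamini-Hochberg over all probes tested). Genes were called at an adjusted p of at most 0.05 and a fold change of at least 1.5. The fits were tested on simulated data with 200 changed probes. The number of arrays limits the precision. The main fits held no slide term, so p-values measure the spread between arrays, which mixes that between mice with that between slides. Since each slide held arrays of 1 tissue, tissues were always compared across different slides.

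Members and gene lists were chosen with earlier results of these data known. All members were named, pathway genes where they passed both limits or were the 2 brightest of their list, and the 5 genes most like the class II chains. Tissues of 1 mouse were paired because the labels give the same animal: the median correlation of same-mouse deviations was 0.12 for lung and liver, 0.02 for lung and forestomach and 0.06 for forestomach and liver. Alternatives were loess from the scanner signals, median centring, normexp with loess, no filter, slide or array column in the fit, the mouse as a block, arrays of the compared tissues alone, the second H2-Ab1 probe, the Fs statistic and leaving out each mouse. Leaving out the lungs with muscle transcripts or the slide 3 forestomachs was added after the data were seen.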

Additional observations from a re-analysis of the deposited data

Results flagged for a closer look

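Of 88 groups of 4 or 5 arrays, 2 held an array far from the others by Dixon's test, which chance gives in about 1 of 20 groups. H2-Eb1 in liver at D2 was 2.15 in mouse 15, and 2.49, 2.50 and 2.48 in the other 3 mice. Cd74 in forestomach at D1 was 0.78 in mouse 10, and -0.17, -0.30, -0.18 and -0.49 in the other 4 mice.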

How the results depend on the processing

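All 7 members were called higher in lung than in liver and in forestomach under every alternative run, with H2-Eb1 over forestomach ranging from 0.63 to 2.77 log2 units, and 0 members were called at any dose under any of them. The size of lung over forestomach was less firm than its direction. Over the alternatives other than leaving out a mouse, it was 3.665 to 5.761 for Cd74 and 3.161 to 5.43 for Ctss. It was 3.875 to 5.523 for H2-Aa, 3.267 to 4.575 for H2-DMb1 and 2.341 to 3.633 for H2-DMa. With the mouse as a replicate block, 7, 7 and 1 members were called for lung over liver, lung over forestomach and forestomach over liver, and the block changed no call. Forestomach over liver called 2 members under loess from the scanner signals and 2 under normexp with loess, 3 without slide 3, and 0 to 1 when each mouse was left out (0 without D0 mouse 2 or 5). Median centring moved the lung medians to 0.49, 0.11 and 0.28 at D1, D2 and D3, and array column moved them to -0.48 at D2 and -0.35 at D3. The lowest D1 median among the alternatives was 0.022. Every lung array of D0 lay in column 1 and every one of D1 in column 2. Array column and dose can thus hardly be separated in lung, and the column fit draws no conclusion on dose. The cause was not tested.

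Some single members changed sign. In lung at D3 these were H2-DMb1 (0.15, median centring), Cd74, H2-DMa and H2-Aa (-0.35, -0.73 and -0.62, array column), H2-Ab1 (-0.088, second probe) and, without mice 17 and 19, H2-Eb1, H2-Ab1 and H2-Aa (-0.0065, -0.062 and -0.039). In forestomach at D3 these were H2-DMa and Ctss (0.12 and 0.10, median centring), H2-DMa, H2-Eb1 and H2-Aa (0.17, -0.47 and -0.98, array column) and Cd74 (-0.0097, without slide 3). For forestomach over liver at D0 these were Cd74, H2-DMa and H2-Eb1 (-0.80, -0.048 and -0.29, median centring), H2-Ab1 (0.024 with normexp, 0.31 with the second probe) and H2-Aa (-0.71, without slide 3). When each mouse was left out in turn, lung D3 changes ranged from -0.024 to 0.19 for H2-Eb1, -0.054 to 0.064 for H2-Ab1 and -0.13 to 0.020 for H2-DMb1. Liver Ctss ranged from -0.083 to 0.16 at D1 and -0.039 to 0.19 at D3, forestomach D3 changes from -0.059 to 0.30 for H2-Eb1 and -0.16 to 0.78 for H2-Aa, and forestomach over liver at D0 from -0.33 to 0.33 for H2-Ab1 and -0.16 to 0.053 for Ctss.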
